A study of Mus musculus with 8 samples.

Results

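Lewis lung carcinoma (LLC) cells grown as tumours under the skin of mice were compared between a fraction with high and a fraction with low EGFP, in which EGFP reports the activity of the mouse PSF1 promoter. The comparison rests on 4 of the 8 arrays of the study, 2 of EGFP-high and 2 of EGFP-low cells, chosen by their titles and paired by the replicate numbers 1 and 2 given there. The other 4 arrays hold the same sorts from the colon carcinoma line colon26 and were used for the shared estimate of the spread and for a test of where LLC differed. All LLC cells, high and low alike, came from the line LLC-PSF1P-EGFP, which stably carries EGFP under the PSF1 promoter, and LLC tumours were dissected 4 weeks after inoculation (colon26 after 2 weeks) and sorted by FACS. The labels give no mouse strain, age or sex, and do not say whether the line is 1 clone or whether the arrays numbered 1 and 2 came from separate tumours. The titles call the arrays biological replicates, without saying what was repeated. The p-values below therefore measure only the spread between these arrays, which may not include that between tumours. With 2 arrays a group, their number limits precision throughout.

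PSF1, encoded by Gins1, is a subunit of the GINS complex, which joins CDC45 and the MCM ring to form the helicase that unwinds DNA at replication forks. Genes for replication proteins are as a rule transcribed from late G1 under E2F factors, whereas genes for mitotic proteins peak in G2 and mitosis. Many of the latter carry a cell cycle genes homology region, read by the MuvB complexes, and upstream CCAAT boxes, which bind the factor NF-Y.

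The promoter sequences of the genes with the most marked changes were therefore set beside their expression. RefSeq entries on the build GRCm38.p6 gave the 250 bases before the annotated start. The 5 shown for genes that rose and the 2 for genes that fell were those among the 15 largest changes in each direction with a single window in the table and no other annotated gene over it. Capitals mark matches to TTTGAA (the core of the cell cycle genes homology region), to CCAAT and to the E2F-type motifs TTCCCGC and TTGGCGC on either strand, with overlapping matches each counted. Each sequence runs 5′ to 3′ towards the start of the gene, on the strand given.
Fam83d (chr2:158767849-158768098, plus strand; rose by 2.27): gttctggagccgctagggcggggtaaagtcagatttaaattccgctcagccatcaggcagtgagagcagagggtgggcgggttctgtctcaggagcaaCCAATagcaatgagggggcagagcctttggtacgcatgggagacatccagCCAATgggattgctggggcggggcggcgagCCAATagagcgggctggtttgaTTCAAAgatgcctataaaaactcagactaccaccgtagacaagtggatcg
Ccnf (chr17:24251410-24251659, minus strand; rose by 2.27): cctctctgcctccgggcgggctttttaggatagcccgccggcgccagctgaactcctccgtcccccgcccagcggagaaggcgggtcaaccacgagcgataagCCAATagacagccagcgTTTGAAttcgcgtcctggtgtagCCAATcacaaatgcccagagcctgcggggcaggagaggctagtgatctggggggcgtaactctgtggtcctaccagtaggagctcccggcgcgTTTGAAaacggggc
Ube2c (chr2:164769679-164769928, plus strand; rose by 2.27): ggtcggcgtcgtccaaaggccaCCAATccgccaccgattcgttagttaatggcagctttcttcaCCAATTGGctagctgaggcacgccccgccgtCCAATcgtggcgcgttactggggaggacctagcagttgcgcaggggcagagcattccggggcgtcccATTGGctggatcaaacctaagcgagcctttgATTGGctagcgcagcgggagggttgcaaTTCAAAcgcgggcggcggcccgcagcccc
Kif11 (chr19:37376132-37376381, plus strand; rose by 2.17): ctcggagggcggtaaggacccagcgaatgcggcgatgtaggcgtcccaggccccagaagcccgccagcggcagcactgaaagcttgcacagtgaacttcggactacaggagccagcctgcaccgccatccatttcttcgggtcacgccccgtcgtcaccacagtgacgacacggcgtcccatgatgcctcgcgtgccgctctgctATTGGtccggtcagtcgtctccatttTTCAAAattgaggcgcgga
Cenpe (chr3:135212313-135212562, plus strand; rose by 2.17): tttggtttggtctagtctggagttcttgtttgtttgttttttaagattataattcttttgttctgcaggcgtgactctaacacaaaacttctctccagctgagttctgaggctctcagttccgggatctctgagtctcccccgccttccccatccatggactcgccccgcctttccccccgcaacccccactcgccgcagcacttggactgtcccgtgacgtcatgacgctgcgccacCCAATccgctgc
Col1a2 (chr6:4505368-4505617, plus strand; fell by 3.40): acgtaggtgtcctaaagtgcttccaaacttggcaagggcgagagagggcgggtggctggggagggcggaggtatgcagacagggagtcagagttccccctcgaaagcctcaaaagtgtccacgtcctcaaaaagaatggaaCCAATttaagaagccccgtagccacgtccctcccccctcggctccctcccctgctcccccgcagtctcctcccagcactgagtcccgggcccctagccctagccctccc
Mmp3 (chr9:7445572-7445821, plus strand; fell by 2.97): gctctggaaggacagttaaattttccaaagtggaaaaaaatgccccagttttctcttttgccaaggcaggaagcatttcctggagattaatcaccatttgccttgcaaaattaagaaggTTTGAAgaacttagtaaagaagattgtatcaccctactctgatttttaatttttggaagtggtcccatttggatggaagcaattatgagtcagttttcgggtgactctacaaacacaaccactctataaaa

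Fam83d, Ccnf, Ube2c and Kif11 held both a CCAAT and a TTTGAA match in this window, with 3, 2, 6 and 1 CCAAT matches. Cenpe and Col1a2 held 1 CCAAT match each and no TTTGAA, and Mmp3 held 1 TTTGAA and no CCAAT. The E2F-type motifs had no match in any of the 7. The same search was run on all windows of the table, of which a gene can have several. Both TTTGAA and CCAAT were found in 11.5% of the 607 windows of genes that rose, in 2.01% of the 746 windows of genes that fell, in 3.48% of the windows of genes tested and not called and in 5.55% of all 32851 windows. The share was 23.3% of 90 windows for the lists of kinetochore, mitotic kinase and spindle genes described below, and 0 of 66 windows for the lists of matrix genes. CCAAT alone or with another motif was in 49.9% of the windows of genes that rose, 30.3% of those that fell, 34.3% of those tested and not called and 33.8% of all windows. The E2F-type motifs were in 16.5% of the windows of genes that rose, 8.45% of those that fell, 9.29% of those tested and not called and 5.62% of all windows, and in 29.3% of the 58 windows of replication genes. TATAAA was in 6.59% of the windows of genes that rose and 11.9% of those that fell, against 6.6% of those tested and not called and 12.4% of all windows. The GC-rich motif GGGCGG differed little between genes that rose and fell, at 56.5% and 54.4%. It was in 56.5% of the windows of genes tested and not called but in 32.7% of all windows. All motifs were searched on both strands, and a match is a description of letters, not of a bound site.

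Of 12177 genes tested, 607 (4.98%) rose and 735 (6.04%) fell in EGFP-high cells, together 11.0%. "Rose" and "fell" stand for an adjusted p under 0.05 over all genes tested, from limma fitted with pairs as blocks. Each change is high minus low on the log2 scale of the deposited signals, and a gene is read by its brightest probe set. The called rises had a median of 0.96 and the called falls a median of −1.01, and 26 genes rose and 53 fell by more than 4-fold. All 1342 called genes had the same sign in both pairs, as did 73.2% of all genes tested. Both high arrays lay above both low arrays for 456 of the 607 genes that rose, and below both for 608 of the 735 that fell, against 17.4% and 14.6% of all genes tested. The changes of called genes were larger in pair 2, with a median of 1.05 against 0.91 for rises and −1.15 against −0.88 for falls. Other probe sets of the called genes had the sign of the chosen probe set in 92.2% of 1227 cases. For 97 of the genes that fell, the high mean was under 5, near background, which limits the size of the fall. Probe sets without a gene symbol leaned towards falls when every probe set was tested as its own unit: of 3259, 48 (1.47%) were higher and 307 (9.42%) lower in high cells, against 3.64% and 5.56% of 21773 with 1 symbol and 3.87% and 6.4% of 594 with several.

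The calls rested on the pairing. Limma without the block called 0 genes; at an unadjusted p under 0.05 it had 794, where 609 are expected by count. Without pair 1, 278 genes rose and 438 fell, and without pair 2, 183 rose and 213 fell; the remaining LLC pair is then assumed to vary like the colon26 pairs. After quantile normalization 640 rose and 540 fell, so the order of the counts turned with this scaling. Array medians were between 4.76 and 4.86. The signal of 3′ probe sets minus that of 5′ probe sets of the control transcripts, a measure of how complete the labelled RNA was, had a median that followed the replicate number and not the sort. This median was 2.49 and 0.13 on low arrays 1 and 2 and 2.70 and −0.01 on high arrays 1 and 2.

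**Figure D1:**
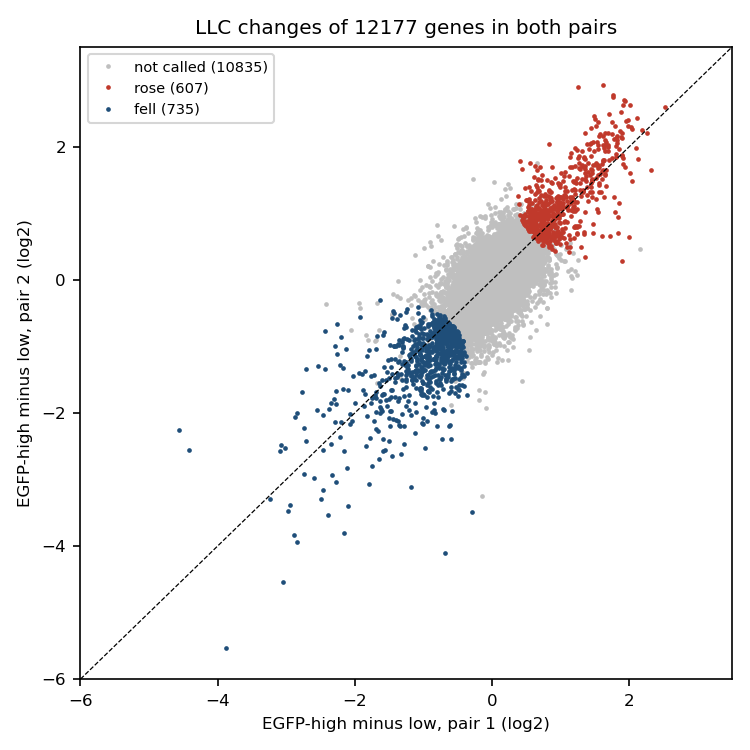
High minus low change of each of the 12177 genes tested in LLC pair 1 (x axis, log2) and pair 2 (y axis, log2), with genes that rose in red, genes that fell in blue, genes not called in grey and the line of equal change dashed. The 607 red points lie above 0 and the 735 blue points below 0 on both axes, and the falls reach further from 0 than the rises.

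Gins1, whose promoter drove the sort, checked the labels. Its signal was 7.23 and 7.14 on low arrays 1 and 2 and 8.42 and 8.51 on the high arrays. Both high arrays lay above both low arrays, and the change was 1.28 (SE 0.21, limma adjusted p = 0.00334). Without pair 2 it was 1.19 (limma adjusted p = 0.0522) and without the block 1.28 (limma adjusted p = 0.231). The mean of its 2 probe sets gave 0.77 (limma adjusted p = 0.0156), so the probe set not chosen changed less. The sort used the activity of this promoter, so the rise of Gins1 is no independent finding.

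Of 22 genes of the fork helicase list, Gins1 included, 15 rose and 0 fell, with a median change of 0.88 against 0.04 for all genes tested. Gins2 (0.64) and Gins3 (0.91) rose, and Gins4, at 0.64, did not pass. Cdc45, the third part of the helicase, rose by 1.16, and Mcm2 (0.81), Mcm3 (1.05), Mcm5 (1.05) and Mcm7 (0.97) of the ring rose, whereas Mcm4 (0.59) and Mcm6 (0.48) did not pass. The largest rise of the list was that of Ticrr, which helps to load CDC45 at origins, with 5.70 and 5.54 on the low arrays and 7.04 and 7.23 on the high arrays (change 1.52, SE 0.19, limma adjusted p = 0.00108). Mcm10, a helicase activator, had 6.82 and 6.44 against 8.14 and 7.78 (1.33, SE 0.19, limma adjusted p = 0.00196). For both genes the high arrays did not overlap the low arrays. Of the list, 10 genes rose without pair 1 and 2 without pair 2.

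Of 13 origin licensing and firing genes 6 rose and 0 fell, with a median of 0.74. Dbf4, the activating subunit of the CDC7 kinase, rose from 9.18 and 8.53 to 10.53 and 10.20 (change 1.51, SE 0.23, limma adjusted p = 0.00221). Cdc6 (1.28), Orc1 (1.21) and Orc6 (0.99), which load the MCM ring, and geminin Gmnn (1.16), which prevents loading after G1, rose too. The origin recognition subunits Orc2 (0.70), Orc3 (0.11), Orc4 (−0.24) and Orc5 (0.14), the loader Cdt1 (0.69) and the kinase gene Cdc7 (0.74) did not pass. Without pair 1, 4 of the list rose, and without pair 2 only Dbf4 of the genes named here kept its call (1 of 13).

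Of 25 genes of the polymerases, the sliding clamp and Okazaki fragment processing, 15 rose and 0 fell, with a median of 0.82. Pole, the catalytic subunit of the leading strand polymerase, had 6.74 and 6.63 on the low arrays and 8.28 and 8.31 on the high arrays (change 1.61, SE 0.19, limma adjusted p = 0.000796). The polymerase delta subunit Pold2 had 5.50 and 7.94 against 6.71 and 9.42, so that the groups overlapped although the high array was above the low array in both pairs (change 1.35, limma adjusted p = 0.00152). Of 23 nucleotide synthesis genes 10 rose and 0 fell, with a median of 0.67. Thymidine kinase Tk1 had 6.06 and 8.58 against 7.76 and 10.51, again overlapping between groups and higher within both pairs (change 1.81, limma adjusted p = 0.00113). Of 21 genes of homologous recombination and the Fanconi pathway 16 rose and 0 fell, with a median of 1.19, among them Rad54b (1.99) and Rad54l (1.45). The Fanconi helicase Brip1 (1.51), the core complex gene Fancb (1.62) and the exonuclease Exo1 (1.56) also rose. Without pair 1 the 3 lists had 10, 4 and 10 rises, and without pair 2 they had 4, 1 and 11.

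Of 19 chromatin genes of dividing cells, 13 rose and 0 fell, with a median of 1.06. Asf1b, a chaperone of newly made histones, rose by 1.67 and the histone variant H2ax by 1.48. The B-type lamin gene Lmnb2 (1.47) and the high mobility group gene Hmgb3 (1.56) rose as well. Without pair 1, 9 of this list rose, and without pair 2, 4 did.

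The mitotic genes had the highest medians of the lists examined. Of 34 kinetochore and spindle checkpoint genes 31 rose, of 33 mitotic kinases and anaphase promoting complex genes 29 rose, and of 32 kinesins, spindle and cytokinesis genes 30 rose. None of the 99 fell, and the medians of the 3 lists were 1.63, 1.72 and 1.79. Depdc1b, which had the largest rise of all genes, had 5.79 on both low arrays and 8.31 and 8.39 on the high arrays (change 2.56, SE 0.22, limma adjusted p = 0.000146). Nusap1, which bundles spindle microtubules, had 8.29 and 7.69 against 10.31 and 10.32 (2.32, SE 0.26, limma adjusted p = 0.000598). For both genes the high arrays were level with each other and far above the low arrays.

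The Aurora kinases rose more in pair 2 than in pair 1. Aurkb, of the chromosomal passenger complex, had 7.42 and 7.79 on the low arrays and 9.36 and 10.48 on the high arrays (change 2.32, limma adjusted p = 0.00104). Aurka, the spindle pole kinase, had 7.37 and 8.14 against 9.29 and 10.85 (2.31, limma adjusted p = 0.000609). Ube2c, the ubiquitin-conjugating enzyme of the anaphase promoting complex, had 9.25 and 9.89 against 11.16 and 12.53 (2.27, limma adjusted p = 0.000582). In each of these the lower high array still lay above the higher low array. Fam83d, which brings a casein kinase to the spindle, had 5.27 and 5.37 against 6.88 and 8.29, and Ccnf, the F-box cyclin, had 6.42 and 6.47 against 8.19 and 9.26. These are among the genes whose promoters are shown above.

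Among spindle and kinetochore genes, Kif11, the motor that pushes spindle poles apart, had 7.41 and 7.12 on the low and 9.36 and 9.51 on the high arrays (change 2.17, SE 0.24, limma adjusted p = 0.000533). Cenpe, a kinetochore motor, had 8.26 and 7.77 against 10.29 and 10.07 (2.17, SE 0.23, limma adjusted p = 0.000431). Cdk1, the kinase of mitotic entry, had 9.32 and 9.84 against 11.22 and 11.98 (2.02, SE 0.21, limma adjusted p = 0.000431). Cdc25c, the phosphatase that activates CDK1, rose by 2.15, the histone H3 kinase gene Haspin by 1.98 and Kif20a, a kinesin of cytokinesis, by 2.22. Prc1 (2.20), Cenpf (2.19), Spag5 (2.27) and Ndc80 (1.91) completed the structural genes of the spindle and kinetochore named here. Without pair 1 the 3 lists had 28, 25 and 27 rises and without pair 2 they had 25, 21 and 27.

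Of 21 condensin, cohesin and topoisomerase II genes, 10 rose and 0 fell, with a median of 0.87. The condensin subunits Ncapd2 (2.04) and Ncapg (1.97), Cdca5 (1.99), which protects cohesion, and Top2a (1.64) rose. Mki67, the gene of the proliferation antigen Ki-67, had 10.76 and 9.53 on the low arrays and 12.27 and 11.25 on the high arrays (change 1.62, SE 0.22, limma adjusted p = 0.00148). Its high values lay above both low values. The number of rises in this list was 10 without pair 1 and 8 without pair 2.

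**Figure D2:**
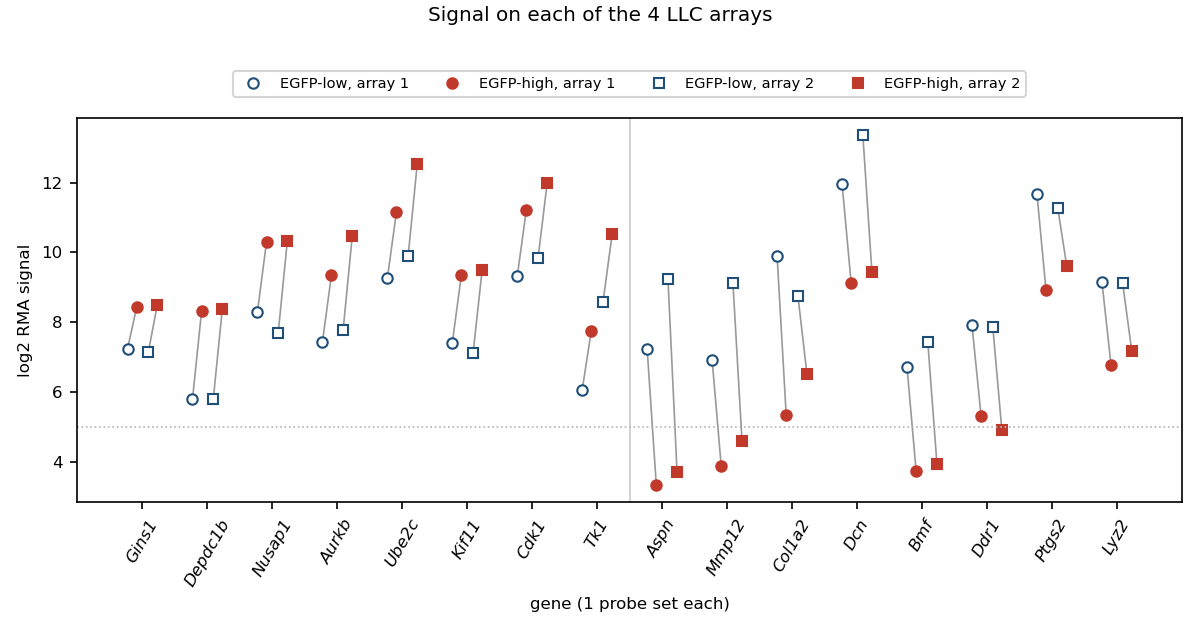
Log2 signal (y axis) of 16 genes on each of the 4 LLC arrays, with circles for array 1 and squares for array 2, open blue for EGFP-low, filled red for EGFP-high, a grey line joining each pair and a dotted line at 5. The 8 genes on the left rose and the 8 on the right fell; each line of the left runs up and each line of the right runs down, and Aspn, Mmp12 and Bmf end below 5.

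Of 28 G1 cyclins, E2F factors and other cell cycle transcription factors 9 rose and 0 fell, with a median of 0.48. The repressive E2F genes E2f7 (1.42) and E2f8 (1.33) rose, as did Mybl2 (1.53) and Foxm1 (1.20), the transcription factors of the G2 and mitosis genes. The activating E2F genes E2f1 (0.23), E2f2 (0.36) and E2f3 (0.06) and the D-type cyclins Ccnd1 (0.45), Ccnd2 (−0.40) and Ccnd3 (−0.64) did not pass. Without pair 1, 5 of the list rose and without pair 2, 3 rose; Mybl2 and Foxm1 lost their calls without pair 2, whereas E2f8 kept its call without either pair.

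Genes of cell cycle arrest leaned towards lower values in high cells, with 20 negative and 5 positive changes. Of 25 CDK inhibitors and quiescence genes 4 fell and 1 rose, with a median of −0.39. Gadd45a, a growth arrest gene induced by stress, had 9.48 and 10.82 on the low arrays and 7.71 and 8.45 on the high arrays (change −2.07, SE 0.20, limma adjusted p = 0.000334). Its high arrays both lay below its low arrays. The Max-binding repressor Mxd4 (−1.36), the antiproliferative gene Btg2 (−1.23) and the thioredoxin inhibitor Txnip (−1.02) fell, and the INK4 inhibitor Cdkn2d rose by 1.08. The inhibitors Cdkn1a (−0.11), Cdkn1b (−0.64) and Cdkn2c (−0.64) did not pass. Without pair 1 there were 5 falls and 0 rises and without pair 2 there were 2 falls and 0 rises, Gadd45a being called in both.

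Of 35 Myc targets and ribosome biogenesis genes 9 rose, with a median of 0.50, among them the transferrin receptor Tfrc (1.05) and the nucleolar genes Fbl (0.80) and Nolc1 (0.82). Of 29 cytosolic ribosomal protein genes 0 were called by limma, 0 had an unadjusted p under 0.05, and the median was 0.03. Rps4x, with the highest mean of these, had 14.08 and 13.91 on the low arrays and 14.08 and 13.93 on the high arrays, a difference smaller than that between arrays of the same sort. Respiratory chain (1 of 35 rose, median 0.30), proteasome (1 of 29, median 0.35) and splicing genes (5 of 30, median 0.35) had positive medians with few calls. Of all genes tested, 4.98% rose. Of 24 nuclear pore and transport genes 10 rose, with a median of 0.64, and the nuclear import factor Kpna2 had 11.81 and 11.22 against 13.13 and 12.95 (change 1.52, limma adjusted p = 0.00152). None of these 6 lists had a gene that fell. Without pair 2 the Myc, respiratory, proteasome and splicing lists had 0 rises and the nuclear pore list 1, and without pair 1 they had 1, 0, 0, 1 and 6.

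Of 25 cholesterol and fatty acid synthesis genes 11 rose and 0 fell, with a median of 0.60. All 11 belong to the mevalonate and sterol branch, among them Hmgcs1 (0.81), Mvd (0.96), Idi1 (1.16), Fdps (1.09), Sqle (1.03), Lss (0.83) and Dhcr7 (0.90). Idi1, which makes the isoprenoid building block dimethylallyl diphosphate, had 9.92 and 9.03 on the low arrays and 10.78 and 10.50 on the high arrays. The fatty acid genes Fasn (0.57), Acaca (0.43) and Scd1 (−0.61) did not pass. Without pair 1, 5 of these genes rose, and without pair 2, 0 did, although Idi1 was higher on the high array of both pairs.

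Several of the largest falls were those of extracellular matrix genes. Of 30 proteoglycans and matricellular proteins 20 fell and 0 rose, with a median of −1.15. Dcn (decorin), a small proteoglycan that binds collagen fibrils, had 11.97 and 13.36 on the low arrays and 9.12 and 9.43 on the high arrays (change −3.39, SE 0.25, limma adjusted p = 8.94e-05). Aspn (asporin), its relative, had 7.22 and 9.23 against 3.34 and 3.70 (−4.70, SE 0.32, limma adjusted p = 6.2e-05), with both high values under 5. It was above 5 only on the LLC low arrays and entered the test only through them, which favours a fall. Fn1 (fibronectin) had 11.68 and 12.39 against 9.21 and 9.22 (−2.81, SE 0.21, limma adjusted p = 9.73e-05). In all 3 the groups were apart by more than the arrays of a sort differed. Versican Vcan (−2.90), periostin Postn (−3.48), dermatopontin Dpt (−3.36), lumican Lum (−2.97) and tenascin Tnc (−2.42) fell too.

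Of 24 collagen and collagen processing genes 10 fell and 1 rose, with a median of −0.72. Col1a2 had 9.90 and 8.76 on the low arrays and 5.34 and 6.51 on the high arrays (change −3.40, SE 0.40, limma adjusted p = 0.000708). Col1a1 (−2.08), Col3a1 (−1.28), Col5a1 (−1.60) and Col5a2 (−2.27) fell, as did the crosslinking enzyme Lox (−1.92), while the basement membrane genes Col4a1 (−0.53) and Col4a2 (−0.28) did not pass. Col8a1 was the exception, with 9.40 and 7.64 against 9.97 and 8.97 (0.95), overlapping between groups, and was called without pair 1 (1.33) and not without pair 2 (0.57). After quantile normalization 6 of the list fell and 0 rose.

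Of 26 matrix proteases and inhibitors 12 fell and 0 rose, with a median of −0.67. Mmp3 (stromelysin) had 7.14 and 10.03 on the low arrays and 4.75 and 6.49 on the high arrays (change −2.97, SE 0.25, limma adjusted p = 0.000156). Its groups did not overlap. Mmp12, the macrophage elastase, fell by 3.79, the gelatinase gene Mmp2 by 2.04, the aggrecanase gene Adamts5 by 2.10 and the related Adamts1 by 2.66. The inhibitors Timp1 (0.23) and Timp2 (−0.52) did not pass, nor did Timp3 (−0.35), which was under 5 on all LLC arrays. Without pair 1 the proteoglycan, collagen and protease lists had 14, 8 and 10 falls and without pair 2 they had 14, 8 and 7. The largest falls named in these lists held in both fits.

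Markers of fibroblasts moved with the matrix genes, and some genes stand in both sets. Of 19 fibroblast markers tested 11 fell and 0 rose, with a median of −1.23, and 6 of the 11 (Dcn, Lum, Dpt, Col1a1, Col1a2 and Col3a1) are matrix genes counted above. Pdgfrb, a receptor of fibroblasts and pericytes, had 8.08 and 8.03 on the low arrays and 5.90 and 6.39 on the high arrays (change −1.91, SE 0.20, limma adjusted p = 0.000431). Pdgfra had 12.70 and 12.62 against 11.64 and 11.15 (−1.26, limma adjusted p = 0.00237), and lost its call without pair 2 (−1.05, limma adjusted p = 0.102). Of the list, 10 fell without pair 1 and 9 without pair 2. The summed linear signal of the list was 35407 and 55216 on the low arrays and 13060 and 14610 on the high arrays. Pi16, Clec3b and Loxl1 were under 5 on all LLC arrays. Of the 8 tested markers not called, Twist2 (−0.14) and Fbln1 (0.19) were above 5 on all LLC arrays. Called markers could stay bright, as did Col3a1 with 12.48 and 12.54 on the high arrays. Whether fibroblasts or the tumour line itself gave these signals was not tested. The part of fibroblasts in the fall of the matrix genes was not tested either. In RNA of sorted bulk cells, fewer cells of a type and less RNA per cell cannot be told apart.

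Growth factors and receptors had more falls than rises. Of 40 genes 15 fell and 0 rose, with a median of −0.50. Ddr1, a collagen receptor kinase, had 7.92 and 7.87 on the low arrays and 5.31 and 4.90 on the high arrays (change −2.79, SE 0.19, limma adjusted p = 6.2e-05). Ereg (epiregulin), a ligand of the EGF receptor, had 9.79 and 10.17 against 8.44 and 8.39 (−1.57, SE 0.19, limma adjusted p = 0.0008). Vegfd, a lymphangiogenic factor, had 9.55 and 9.59 against 8.09 and 7.61 (−1.72, SE 0.27, limma adjusted p = 0.0026). All 3 were apart between groups on all arrays. Hgf (−1.49), Tgfb2 (−1.50), Vegfa (−0.87), Tgfb3 (−0.95) and the semaphorin receptor Nrp1 (−1.08) fell, while Egfr (0.22), Met (0.18) and Axl (0.07) did not pass. Sema3a, a secreted semaphorin, was among the 15 largest falls, with 10.89 and 10.85 against 8.14 and 7.93 (−2.83, SE 0.18, limma adjusted p = 5.7e-05). Osr2, a transcription factor of mesenchyme, had 6.42 and 9.34 against 3.48 and 5.96, a change of −3.17 within pairs of unlike level. Without pair 1 the list had 10 falls and without pair 2 it had 6.

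Of 22 macrophage and monocyte markers tested 13 fell and 0 rose, with a median of −1.04. Lyz2, a lysozyme of myeloid cells, had 9.16 and 9.11 on the low arrays and 6.78 and 7.17 on the high arrays (change −2.16, SE 0.19, limma adjusted p = 0.000166). Csf1r, the receptor on which macrophages depend, had 8.30 and 7.77 against 6.66 and 6.18 (−1.61, SE 0.18, limma adjusted p = 0.000532). The mannose receptor Mrc1 (−2.12), the complement gene C1qa (−1.59) and arginase Arg1 (−2.83) fell. Of the 8 arrays, Arg1 was above 5 only on the LLC low arrays. It entered the test only through them, which favours a fall. Adgre1 (0.01), Cd14 (0.44) and Ccr2 (−0.01) did not pass, and Itgam, Fcgr1, Cd163 and Aif1 were under 5 on all LLC arrays. The summed signal of the list was 3768 and 3429 in low and 1368 and 1409 in high cells, so the groups did not overlap. Without pair 1 there were 11 falls and without pair 2 there were 7, and Lyz2, Csf1r, Mrc1 and Arg1 were called in both.

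Of 29 lysosomal genes 11 fell and 0 rose, with a median of −0.55, and several of these are strongly expressed by macrophages. Ctss (cathepsin S) had 10.01 and 9.40 on the low arrays and 7.30 and 6.98 on the high arrays (change −2.57, SE 0.20, limma adjusted p = 0.000112). Cathepsin genes Ctsc (−2.78) and Ctsk (−2.17) and the membrane protein gene Scarb2 (−1.77) fell, while Ctsd (−0.33), Ctsl (−0.55) and Lamp1 (−0.25) did not pass. Of 15 antigen presentation genes 6 fell, with a median of −0.46, including the class II invariant chain Cd74 (−1.30). Of 30 interferon-stimulated genes 10 fell, with a median of −0.56, including Oasl2 (−1.29), which had 8.02 and 6.46 against 6.66 and 5.24 and overlapped between groups. None of the antigen presentation and interferon genes rose. Without pair 1 the lysosome, antigen and interferon lists had 8, 2 and 7 falls and without pair 2 they had 5, 2 and 2. After quantile normalization the antigen list had 3 falls and the interferon list 4. The macrophage markers fell on the same arrays, and their part in these results was not tested.

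Of 8 neutrophil markers tested 3 fell, Lcn2 (−2.29), S100a8 (−1.73) and S100a9 (−1.13), and 0 rose, with a median of −0.19. Lcn2 was above 5 only on the LLC low arrays and entered the test only through them, which favours a fall. Il1b (−0.25) and Elane (0.25), above 5 on all LLC arrays, did not pass. Mpo, Camp, Ngp, Ltf, Cxcr2, Csf3r and Mmp8 of the same list were under 5 on all LLC arrays. S100a8 had 6.93 and 6.96 on the low arrays and 5.23 and 5.21 on the high arrays (limma adjusted p = 0.00043). S100a9 lost its call without either pair, which left 2 falls in each fit.

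Of 28 immediate early genes, which respond within minutes to growth and stress signals, 13 fell and 1 rose, with a median of −0.66. Ptgs2, the inducible cyclooxygenase, had 11.68 and 11.28 on the low arrays and 8.91 and 9.60 on the high arrays (change −2.22, SE 0.24, limma adjusted p = 0.000533). Klf4 had 7.54 and 7.07 against 5.84 and 5.34 (−1.72, SE 0.19, limma adjusted p = 0.000521), and the groups of both genes were apart. Egr1 (−1.69), Zfp36 (−1.31) and Fosl2 (−1.28) fell, Fosl1 rose by 0.66, and Myc (0.22) and Jun (−0.67) did not pass. Without pair 1, 6 of the list fell and without pair 2, 8 fell, and Fosl1 was called in neither.

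Of 34 glycolysis and hypoxia genes 9 fell and 1 rose, with a median of −0.43. The falls lay in hypoxia-induced genes outside the glycolytic chain, such as Ndrg1 (−1.45), the collagen-modifying Plod2 (−1.53) and P4ha2 (−1.17) and the oxidase Ero1a (−1.21), and in Slc2a1 (−0.88) and Hk2 (−0.74) at its entry. Ndrg1 had 12.56 and 12.08 on the low arrays and 11.04 and 10.70 on the high arrays. The glycolytic enzymes Aldoa (−0.46), Pgk1 (0.05), Pkm (−0.13) and Ldha (0.13) did not pass, and the glucose transporter gene Slc2a3 rose by 0.92. Without pair 1, 2 genes fell, Ndrg1 and Plod2, without pair 2, 4 fell, and Slc2a3 was called in neither nor after quantile normalization.

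Stress lists had no common direction. Of 25 genes of the unfolded protein and amino acid response 4 fell, among them Dnajb9 (−1.11) and Atf5 (−1.08), and 2 rose, the serine synthesis genes Psat1 (1.49) and Phgdh (0.96), with a list median of −0.05. Of 19 heat shock genes 3 fell (Cryab, Hspb8 and Bag3) with a median of −0.02. Without pair 1 the first list had 1 rise and 1 fall and the second 1 fall, and without pair 2 they had 0 rises and 1 fall, and 0 falls.

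Bcl2 family and caspase genes fell where they changed. Of 26 Bcl2 family and caspase genes 9 fell and 0 rose, while the median was −0.11. Bmf, a BH3-only gene that antagonises Bcl2 proteins, had 6.71 and 7.43 on the low arrays and 3.73 and 3.95 on the high arrays (change −3.23, SE 0.19, limma adjusted p = 5.7e-05), with both high values under 5. The inflammatory caspase gene Casp1 had 9.39 and 9.19 against 7.22 and 6.61 (−2.37, SE 0.21, limma adjusted p = 0.00018), and Casp4 had 8.30 and 8.53 against 6.55 and 6.76 (−1.76). Both were apart between groups. The survival gene Bcl2l2 (−0.87) fell too, so the falls were not of death-promoting genes alone. It lost its call without either pair. The apoptotic caspase genes Casp6 (−0.36), Casp8 (−0.12) and Casp9 (0.34) and the BH3-only genes Bbc3 (0.00) and Bid (0.04) did not pass. Without pair 1 there were 4 falls and without pair 2 there were 3, with Bmf, Casp1 and Casp4 called in both.

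The series set out to ask whether cells with high PSF1 expression have a signature of embryonic stem cells. Of 36 pluripotency genes on the array, 22 were under 5 on all 4 LLC arrays, among them Pou5f1, Nanog and Sox2, and 16 were tested. Of these Dnmt3b (0.82) and Dnmt3l (0.79), a DNA methyltransferase and its cofactor, rose and Klf4 (−1.72) fell, with a median of −0.01 whose sign depended on the scaling. The groups overlapped for both genes that rose, with 5.94 and 5.32 on the low and 7.02 and 5.88 on the high arrays for Dnmt3b, and 4.80 and 5.51 against 5.39 and 6.50 for Dnmt3l. Both lost their calls without either pair, whereas Klf4 was called in both fits. Of 19 tested genes used as surface or self-renewal markers of tumour stem cells, Nes (0.75) rose and 5 fell, with a median of −0.44. The falls were those of Cd34 (−1.44), Alcam (−1.12), Sox4 (−1.60), Abcb1a (−0.83) and Itgb3 (−0.81). Prom1, Cd24a, Kit, Abcg2, Aldh1a1 and Lgr5 were under 5 on all LLC arrays. So was Abcb1a, whose fall thus lay wholly near background. Without pair 1, 2 of this list fell, without pair 2, 3 fell, and Nes was called in neither; after quantile normalization 3 fell.

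Of 22 genes of the epithelial and mesenchymal state 3 fell and 0 rose, with a median of −0.09. The 3 were mesenchymal transcription factors, Prrx1 (−1.34), Tcf4 (−0.90) and Zeb2 (−0.86). Vimentin Vim (−0.14), keratin Krt8 (0.27) and Epcam (−0.17) did not pass, and Cdh1 was under 5 on all LLC arrays. Krt8 had 12.44 and 12.36 on the low arrays and 12.53 and 12.80 on the high arrays. Of the 3 falls, 2 held without pair 1 and 0 without pair 2.

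The label of lung carcinoma was set against lung markers. Of 13 lung epithelium genes on the array 8 were under 5 on all LLC arrays, among them Nkx2-1, Sftpc and Scgb1a1, while the alveolar genes Sftpb (5.62 to 5.70), Slc34a2 (5.34 to 5.85) and Ager (5.12 to 5.40) were just above 5 on all 4. Foxa1 rose by 0.67 (limma adjusted p = 0.0462), with 5.80 and 5.27 on the low and 6.66 and 5.73 on the high arrays, and lost its call without either pair and after quantile normalization.

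Markers of other cells were mostly dim. Of the endothelial list 12 genes, among them Pecam1, Cdh5, Tek, Vwf and Lyve1, were under 5 on all LLC arrays. Of 17 endothelial markers tested Ramp2 (−1.04) and Lyve1 (−0.99) fell, with a median of −0.34. Both were called without pair 1 and neither was without pair 2, and 1 was called after quantile normalization. Pdgfrb was the 1 of 10 pericyte and smooth muscle markers that fell, and Fabp4 (−1.89) the 1 of 4 adipocyte markers. Of all genes tested, 6.04% fell, so such single calls say little about a list. Limma called 0 of 5 dendritic cell, 5 T and NK cell, 3 B cell, 3 mast cell, 6 skeletal muscle, 3 keratinocyte, 1 erythroid and 5 Schwann cell markers tested; Thy1, of the T cell and fibroblast lists, was the 1 with an unadjusted p under 0.05. Xist, which is expressed from X chromosomes of female cells, had 7.14 and 6.18 on the low arrays and 5.56 and 5.40 on the high arrays (change −1.18, limma adjusted p = 0.0401), and its call ended without pair 1 (−0.78) and after quantile normalization. The Y-linked genes Eif2s3y (−0.37), Kdm5d (−0.39) and Uty (−0.46) did not pass. Both Xist and the 3 Y-linked genes were above 5 on every LLC array.

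**Figure D3:**
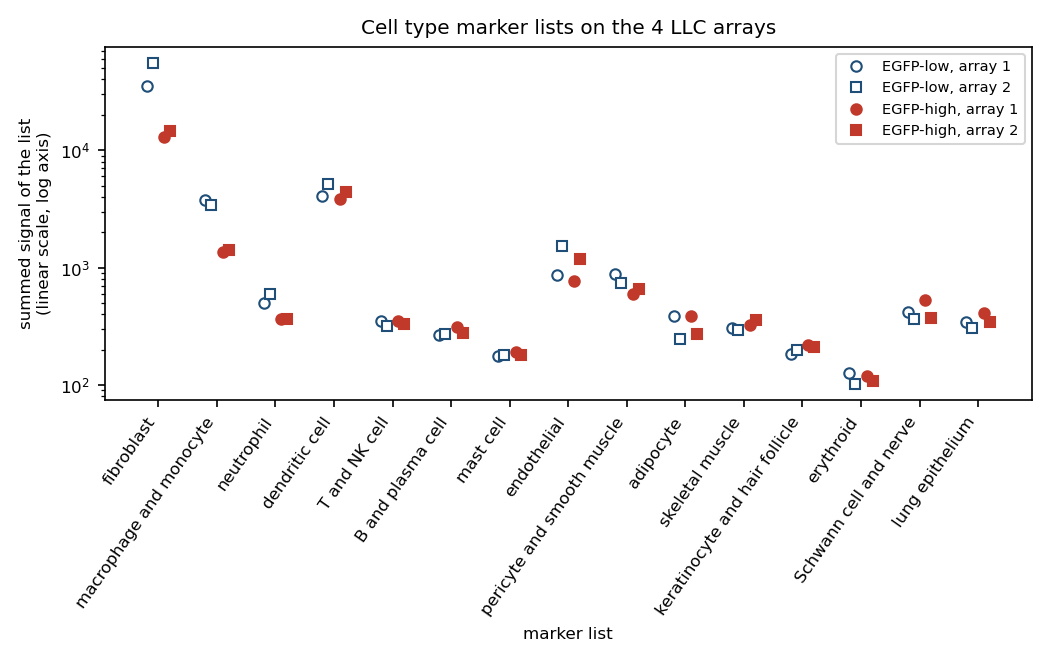
Summed linear signal (y axis, log scale) of each cell type marker list on the 4 LLC arrays, with circles for array 1, squares for array 2, open blue for EGFP-low and filled red for EGFP-high. The fibroblast sums were 35407 and 55216 in low against 13060 and 14610 in high cells, and the macrophage sums 3768 and 3429 against 1368 and 1409. The neutrophil and the pericyte and smooth muscle sums were also lower on both high arrays. The B cell, mast cell, skeletal muscle and keratinocyte sums were higher on both high arrays, with no gene called. The remaining lists overlap between the sorts.

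**Figure D4:**
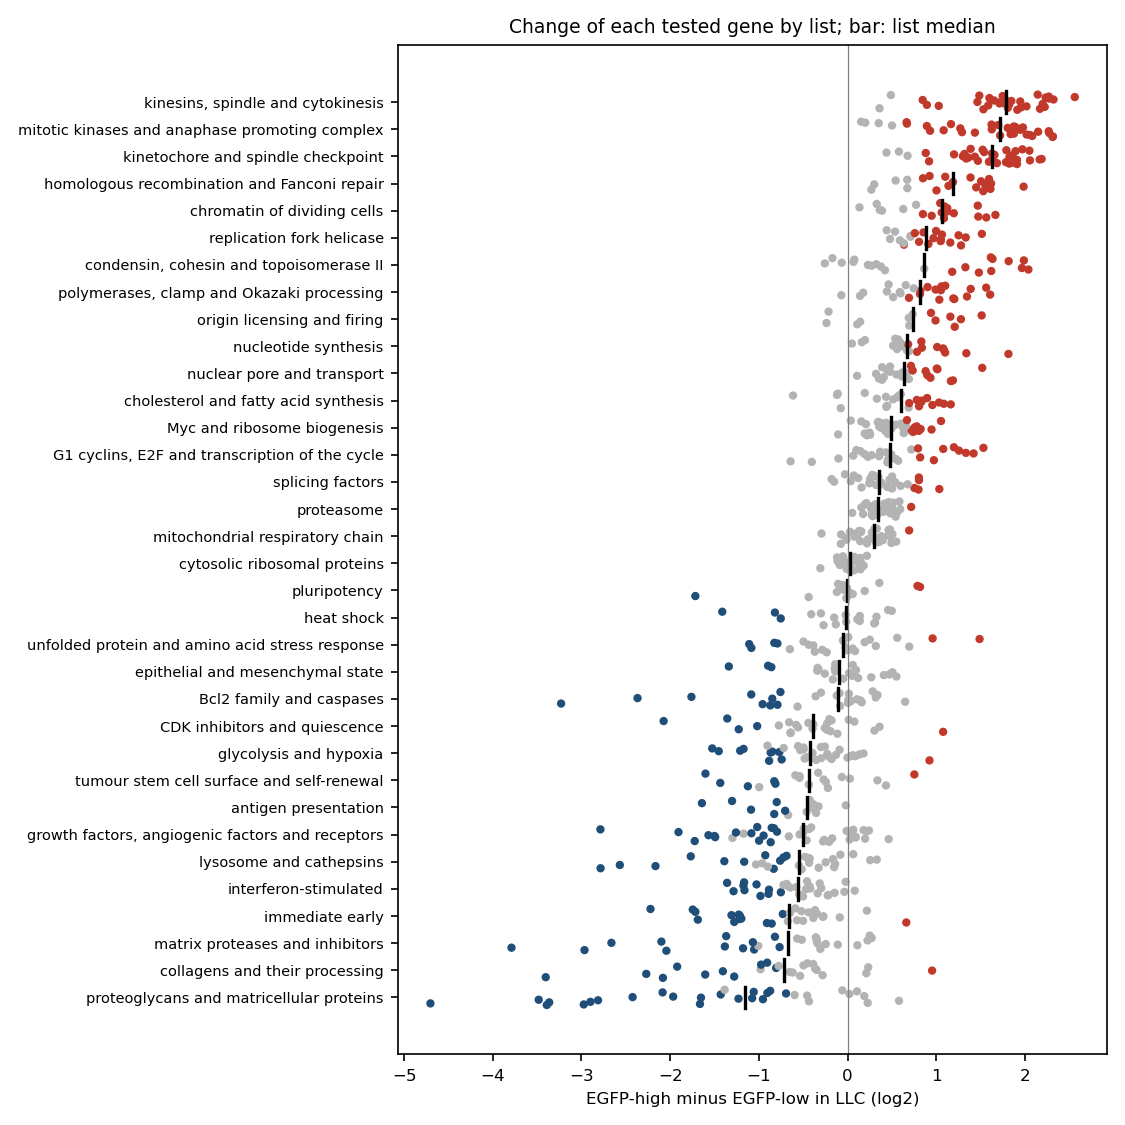
High minus low change (x axis, log2) of each tested gene of the programme lists, with genes that rose in red, genes that fell in blue, genes not called in grey and a black bar at each list's median. The lists are ordered by median, from 1.79 for kinesins, spindle and cytokinesis to −1.15 for proteoglycans and matricellular proteins.

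The LLC change was tested against the colon26 change to see where LLC stood apart. Of 12177 genes, 120 (0.985%) had a change lower in LLC than in colon26 and 52 (0.427%) a change higher in LLC, together 1.41%. Of the 120, 117 fell in LLC; of the 52, 5 rose in LLC and 47 fell in colon26. The named mitosis, replication and repair genes were not among them, which does not show that the lines are alike. Their largest differences were 1.33 for Rad54b and 1.12 for Cdc25c (limma adjusted p = 0.0618 and 0.0928), and that of Gins1 was 0.21 (limma adjusted p = 0.776). These counts depended on the scaling and on the colon26 pairs: after quantile normalization 2 genes were lower and 2 higher in LLC, and without either colon26 pair there were 0 of each. Without LLC pair 1 there were 128 lower and 47 higher, and without LLC pair 2 there were 42 and 48. Limma without the block also called 0 of each.

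The falls that differed lay in several of the groups above. Sema3a changed by −2.83 in LLC and 0.04 in colon26 (difference −2.88, SE 0.25, limma adjusted p = 0.000871). Ddr1 changed by −2.79 and 0.06 (difference −2.85, limma adjusted p = 0.00131), and Bmf by −3.23 and −0.07 (difference −3.16, limma adjusted p = 0.000871). For Sema3a and Ddr1 the colon26 arrays had signals of 10.62 to 11.30 and 7.76 to 8.21, well above background. Bmf had only 4.54 to 5.09 there, so background limits how large a fall in colon26 could be. The same holds for Gadd45a, with 5.02 and 4.95 on the colon26 low arrays (change −2.07 in LLC and 0.65 in colon26, difference −2.72, limma adjusted p = 0.003), and for Aspn, at 3.54 to 4.44 on the colon26 arrays (−4.70 and −0.50). Matrix genes differed too, among them Dcn (−3.39 and −0.36), Fn1 (−2.81 and −0.32) and Vcan (−2.90 and −0.47), whereas Postn (−3.48 and −3.25) and Dpt (−3.36 and −1.66) did not pass the test of a difference. In colon26, Dcn lay between 13.07 and 13.60 and Fn1 between 13.46 and 13.87, near the highest signals on the arrays. The inflammatory genes Ptgs2 (−2.22 and 0.16) and Casp1 (−2.37 and 0.02) also passed it.

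In the other direction the differences came from deeper falls in colon26. Fabp5, a fatty acid binding protein, had 9.36 and 8.85 on the LLC low arrays and 10.17 and 9.49 on the LLC high arrays (change 0.73, limma adjusted p = 0.0894), against a change of −5.20 in colon26, the largest difference of the 172 (5.93, limma adjusted p = 9.2e-05). Fabp4 changed by −1.89 in LLC and −5.12 in colon26, Lyz1 by −2.17 and −5.11, and Ctss by −2.57 and −4.46. Lyz1 and Lyz2 are near-identical genes whose probe sets may each read both.

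**Figure D5:**
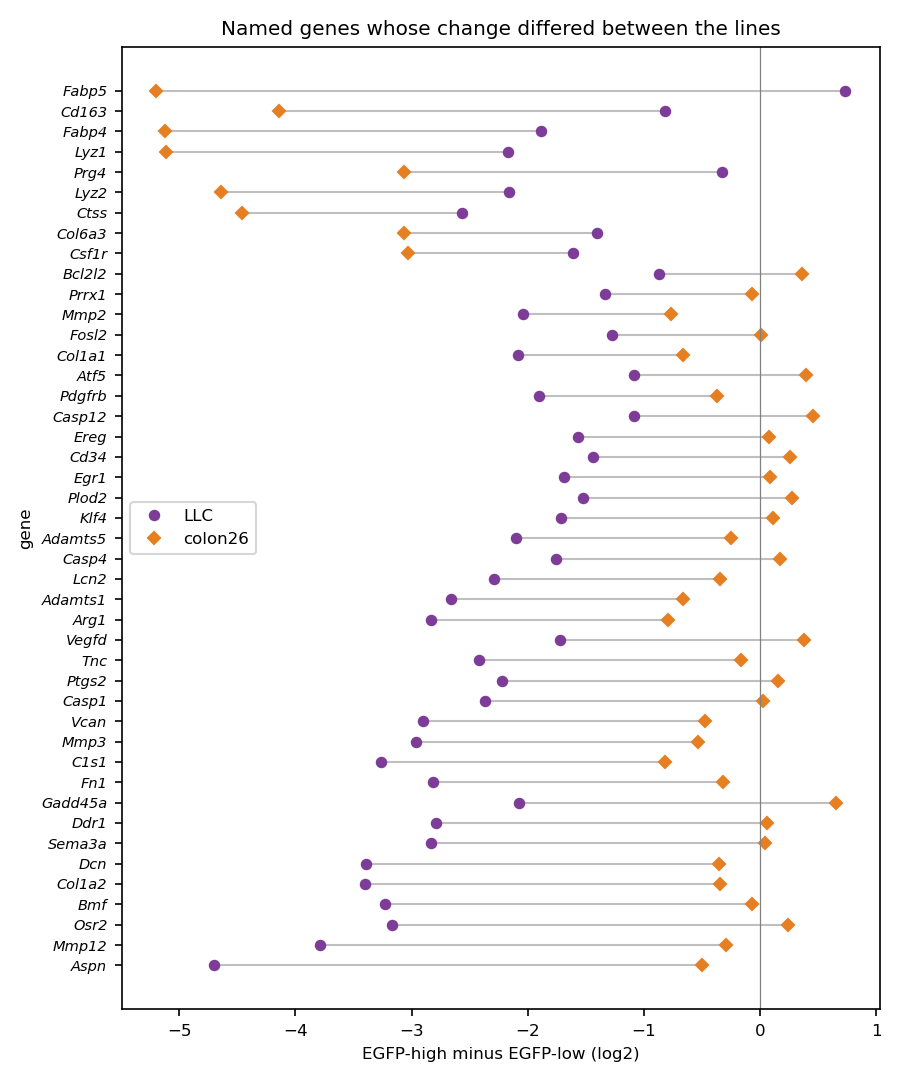
High minus low change (x axis, log2) in LLC (purple circles) and colon26 (orange diamonds) of the 44 named genes whose changes differed between the lines, ordered by the difference. Fabp5 stands at the top with 0.73 in LLC and −5.20 in colon26, and Aspn at the bottom with −4.70 and −0.50.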

How the data were processed

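Labelled RNA of the sorted cells was measured on Affymetrix mouse arrays of 1 colour. RMA, named in the submitters' processing notes, was the authors' summary of the 45101 probe sets, and what they deposited is log2 signal; its version is not given in the sources used here. Of the probe sets, 34945 had 1 gene symbol in the platform annotation, 932 several, 9160 none and 64 were controls; 34741 matched RefSeq. A gene was read by its brightest probe set over the 8 arrays, and the 12177 genes above log2 5 on at least 2 arrays were tested with limma 3.58.1 in R 4.3.3. The model had all 8 arrays and a block for each pair (residual degrees of freedom 2, prior 8.25), with Benjamini-Hochberg adjustment at 0.05, and was tested on simulated data. Arrays of the same number deviated together from their group means (r across genes 0.887 in LLC and 0.838 in colon26), and the pairing comes from the titles. The descriptions of the colon26 arrays name LLC; their titles were followed.

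The members, gene lists and alternatives were chosen with earlier results of these data known. Genes were named by rule: Gins1, the 15 largest rises and falls with arrays that do not overlap, up to 5 called genes per list in order of p (or the 2 brightest), and 5 of each sign for the line difference. Other list members were named with their values in view. The alternatives comprised no block, LLC arrays only, other filters (none, 7), scalings, moderation and probe set rules, and leaving out each array, which with the block removes its pair. Promoters were RefSeq's, build GRCm38.p6; Gins1, Aurkb, Depdc1b and Dcn have no entry in the table used. Figures used Python 3.11.15 and matplotlib 3.10.9.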

Additional observations from a re-analysis of the deposited data

Results flagged for a closer look

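The change from EGFP-low to EGFP-high cells differed between LLC and colon26, by limma's test of the difference with the pair as a block, for 52 genes that were higher in LLC and 120 that were lower in LLC. The values that follow are the LLC change minus the colon26 change on the log2 scale. Among matrix and matrix protease genes the difference was Aspn (−4.20), Mmp12 (−3.50), Col1a2 (−3.06), Dcn (−3.03), Fn1 (−2.49), Mmp3 (−2.43), Vcan (−2.43), Tnc (−2.26), Adamts1 (−2.0), Adamts5 (−1.85), Plod2 (−1.80), Col1a1 (−1.42) and Mmp2 (−1.28). Among genes of signalling, receptors and transcription the difference was Osr2 (−3.40), Sema3a (−2.88), Ddr1 (−2.85), Vegfd (−2.10), Klf4 (−1.83), Egr1 (−1.77), Cd34 (−1.69), Ereg (−1.64), Pdgfrb (−1.53), Atf5 (−1.48), Fosl2 (−1.28) and Prrx1 (−1.27). Among genes of cell death, arrest and inflammation the difference was Bmf (−3.16), Gadd45a (−2.72), C1s1 (−2.44), Casp1 (−2.39), Ptgs2 (−2.38), Arg1 (−2.03), Lcn2 (−1.94), Casp4 (−1.93) and Casp12 (−1.54). For the survival gene Bcl2l2 the difference was −1.23. In the other direction it was Fabp5 (5.93), Cd163 (3.32), Fabp4 (3.23), Lyz1 (2.94), Prg4 (2.74), Lyz2 (2.48), Ctss (1.89), Col6a3 (1.66) and Csf1r (1.42). After quantile normalization the counts were 2 and 2, so the single differences depend on the scaling. For Aspn, Mmp12, Bmf, Osr2, Tnc, Arg1, Lcn2, Adamts5, Mmp2, Fabp4, Cd163 and Prg4 the LLC high mean was under 5, where background limits a fall. Aspn, Arg1 and Lcn2 were under 5 on all 4 colon26 arrays and on both LLC high arrays, so they entered the test only through the LLC low arrays. The colon26 low means of Mmp12, C1s1, Bmf and Gadd45a were under 5 too. For these 7 genes background limits how large a fall in colon26 could be. Arg1 and C1s1 changed by −0.80 and −0.82 there.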

How the results depend on the processing

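The alternatives other than quantile normalization, median centring, the mean of probe sets and single probe sets could not turn a called direction. They keep the LLC change of the first fit or give that of 1 pair, and all called genes had the same sign in both pairs. Under every alternative that tested them by gene the 1342 LLC calls kept their direction. Of these, 901 were called again with LLC arrays only, 1008 with no filter, 1074 after quantile normalization, 1299 after median centring, 1309 with trend and robust moderation, and 992 of 1305 with the mean of probe sets. Without the replicate block limma called 0 genes in LLC in either direction and 0 for the line difference in either direction, and Gins1 (1.28) had an adjusted p of 0.231. Every probe set as its own unit gave 1555 falls. There the other probe sets of called genes had the sign of the chosen one in 92.2% of 1227 cases. Of those with the opposite sign, 0 were called. Leaving out 1 array, and with it its pair, gave 183 to 449 rises, 213 to 494 falls, 0 to 48 and 0 to 128 genes for the line difference (higher and lower in LLC), and 1.19 to 1.37 for Gins1. The line difference gave 22 and 34 genes with no filter, 211 lower with a filter of 7, 2 and 2 after quantile normalization, 90 and 284 after median centring, and 246 lower with trend and robust moderation. Of 176 named calls besides Gins1, 44 were lost without pair 1 and 71 without pair 2. Values that changed sign were all of genes not called: leaving out a pair gave −0.004 to 0.023 for Rps4x, −0.083 to 0.424 for Acta1, −0.083 to 0.45 for Cd3e, −0.045 to 0.442 for Ighm, −0.063 to 0.754 for Krt5, −0.198 to 0.113 for Hba-a2 and −0.048 to 0.045 for Pax5, and the others were Fscn1 (0.273) and Pax5 (0.101) with the mean of probe sets, and Pax5 after quantile normalization (0.014) and median centring (0.007). The medians of the dendritic cell and pluripotency lists changed sign between scalings. Others changed sign in further settings, such as heat shock with −0.161 without pair 1 and 0.159 without pair 2. Of 50 list medians, 33 moved by more than the spread between pairs in some setting. The cause of these changes was not tested, except that leaving out a pair leaves fewer arrays. Signal near background limits falls that end under 5.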

Other observations

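Aspn, which had the largest fall (−4.70), lies within the span of Cenpp, a kinetochore gene that rose (1.86), in the RefSeq annotation. Cenpp had 6.99 and 5.26 on the low arrays and 8.54 and 7.42 on the high arrays, and Aspn 7.22 and 9.23 against 3.34 and 3.70. Both genes were picked out after their values were seen.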
